A study of Homo sapiens with 3 samples.

Results

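Nuclear-encoded subunits of respiratory complexes II to V were described in untreated HEK293T cells. Members were chosen by symbol: SDHA to SDHD for complex II, UQCR symbols and CYC1 for complex III, the numbered COX4 to COX8 subunits for complex IV, and ATP5 symbols for complex V. Symbols with a pseudogene suffix were left out. This gave 49 of the 35880 gene symbols in the deposited table, with 4 in complex II, 9 in complex III, 17 in complex IV and 19 in complex V. The 49 genes lie on 21 chromosomes. The rule itself uses symbols and no measured value, but it was set with earlier results of these data known.

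HEK293T is an established line from human embryonic kidney, with the large T antigen of SV40. The cells received no treatment, grew in high-glucose medium with 10% fetal bovine serum, and were harvested at 70% confluence. Polyadenylated RNA was sequenced in 3 libraries, given in the labels as biological replicates 1, 2 and 3, and these formed 1 group with no control. Separate cultures are not stated in the labels. The p-values therefore reflect the variation among 3 libraries, which could be technical.

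Succinate dehydrogenase, complex II, oxidises succinate and passes the electrons to ubiquinone. It is the 1 complex of the chain with no mitochondrially encoded subunit. The cytochrome bc1 complex (III) passes electrons from ubiquinol to cytochrome c, cytochrome c oxidase (IV) passes them to oxygen, and both pump protons. ATP synthase (V) lets the protons flow back through a ring of c subunits and makes ATP. Several subunits of complex IV exist as a widely expressed form and a form best known from heart and muscle, lung or testis. Nuclear respiratory factor 1 (NRF1), the ETS family factor GABP and YY1 are known to act on many genes of the chain.

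Depth is given only as an estimate. The spacing of low values gave estimates of 33080000, 33620000 and 33500000 reads for replicates 1, 2 and 3. Only a limited range of depths around the count sum of replicate 1 was tried, so very unlike depths could not have been found. Values are TPM, reads divided by effective transcript length and rescaled to a sum of 1000000 per library, so a level is a share of the library. In bulk RNA, fewer cells that express a gene and less RNA per cell cannot be told apart. The 7 markers listed for this line were picked as genes expressed in it, with earlier results of these data known. Their calls are therefore no check of cell identity. All 7 were called above 1 TPM by limma (adjusted p under 0.05), as were 58.5% of all symbols tested. They ran from PAX2 at 1.57 ± 0.0836 TPM to VIM at 401 ± 8.62 TPM (SD, n = 3). Among the markers of mature kidney, UMOD and AQP2 were listed at 0 in every library and 3 were called below 1 TPM.

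The promoters of 6 genes, picked with their levels known, are shown first because they belong to 3 pairs of complex IV isoforms whose members sat at opposite ends of the level range. Each is the 280-base window from 250 bases before the RefSeq start to 30 bases from it on, 5′ to 3′ on the gene's strand, build GRCh38.p14. Capitals mark exact matches on either strand to the NRF1 letters (GCGCA, any base, then GCGC), the ETS letters CCGGAAG, the YY1 letters AAGATGGC or the TATA letters TATAAA, which do not contain one another. COX6A1, the widely expressed form of subunit 6A, lies at chr12:120437863-120438142 on the plus strand, and COX6A2, the heart and muscle form, at chr16:31428331-31428610 on the minus strand.
COX6A1: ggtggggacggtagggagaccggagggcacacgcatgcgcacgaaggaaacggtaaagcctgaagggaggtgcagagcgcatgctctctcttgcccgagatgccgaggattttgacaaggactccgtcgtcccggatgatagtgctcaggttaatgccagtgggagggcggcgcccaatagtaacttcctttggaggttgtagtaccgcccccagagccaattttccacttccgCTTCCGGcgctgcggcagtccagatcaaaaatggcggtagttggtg
COX6A2: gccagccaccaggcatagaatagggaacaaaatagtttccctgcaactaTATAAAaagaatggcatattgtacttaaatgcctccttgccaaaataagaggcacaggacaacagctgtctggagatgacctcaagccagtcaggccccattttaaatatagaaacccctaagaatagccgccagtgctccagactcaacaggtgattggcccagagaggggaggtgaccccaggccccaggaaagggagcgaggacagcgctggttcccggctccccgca
COX8A, the widely expressed subunit 8, lies at chr11:63974370-63974649 (plus strand), and COX8C, the testis form, at chr14:93346932-93347211 (plus strand).
COX8A: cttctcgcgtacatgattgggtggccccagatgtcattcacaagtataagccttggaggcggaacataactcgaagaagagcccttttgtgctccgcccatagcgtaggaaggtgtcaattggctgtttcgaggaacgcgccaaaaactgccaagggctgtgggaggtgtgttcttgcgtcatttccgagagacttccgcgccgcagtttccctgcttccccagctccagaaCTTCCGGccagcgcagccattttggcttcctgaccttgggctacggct
COX8C: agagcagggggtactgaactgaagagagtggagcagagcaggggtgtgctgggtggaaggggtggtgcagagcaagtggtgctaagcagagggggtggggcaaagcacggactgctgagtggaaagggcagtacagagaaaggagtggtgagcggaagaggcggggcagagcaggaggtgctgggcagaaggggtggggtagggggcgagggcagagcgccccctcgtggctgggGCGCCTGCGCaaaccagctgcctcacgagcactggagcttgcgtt
COX6B1, the widely expressed subunit 6B, lies at chr19:35648073-35648352 (plus strand), and COX6B2, the testis form, at chr19:55354690-55354969 (minus strand).
COX6B1: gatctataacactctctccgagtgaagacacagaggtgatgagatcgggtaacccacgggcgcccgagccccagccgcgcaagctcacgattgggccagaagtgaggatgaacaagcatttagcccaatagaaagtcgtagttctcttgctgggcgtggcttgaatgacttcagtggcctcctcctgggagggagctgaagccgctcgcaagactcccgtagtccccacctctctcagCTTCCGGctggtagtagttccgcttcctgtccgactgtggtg
COX6B2: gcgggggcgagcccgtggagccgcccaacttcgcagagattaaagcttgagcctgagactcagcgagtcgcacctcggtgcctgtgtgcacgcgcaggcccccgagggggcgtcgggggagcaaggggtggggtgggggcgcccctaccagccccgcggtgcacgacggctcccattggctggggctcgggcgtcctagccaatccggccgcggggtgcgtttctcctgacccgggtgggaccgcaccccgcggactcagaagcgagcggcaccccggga

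The 3 widely expressed forms each held 1 ETS match, which began 16, 18 and 12 bases before the start in COX6A1, COX8A and COX6B1. None of their tissue forms held one. In the other pair with both windows in the table, COX7B and COX7B2, neither gene held the ETS, NRF1 or YY1 letters, and COX7B held 2 matches to the TATA letters. COX8C held 1 match to the NRF1 letters, beginning 15 bases before its start, and COX6A2 held 1 match to the TATA letters 201 bases before its start. COX6B2 held no match to these 4 motifs but had 31 CpG dinucleotides, against 16 in COX6B1. A match is a description of letters and not evidence that a factor binds.

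Promoter windows were found for 38 of the 49 members, 34 with a mean of at least 1 TPM and 4 below it. Where a symbol had several starts, the first listed was used. Of the 34, 15 (44.1%) held the ETS letters, against 10.3% of 27303 promoters and 13.9% of the 15841 promoters of protein-coding genes. The NRF1 letters were in 10 of the 34 (29.4%), against 6.20% of all and 8.52% of protein-coding promoters. In all 22 of the 34 held at least 1 of the 2 motifs, and 3 held both: ATP5ME, SDHD and UQCR11. The SDHA window held 4 NRF1 matches, which was the highest count among members. YY1 letters were in 8.82% of the 34 (3.17% of protein-coding promoters), and ATP5PB, ATP5PF and SDHB carried them. The GC box letters GGGCGG were in 58.8% against 57.5% of protein-coding promoters, CCAAT in 38.2% against 35.8%, and TATAAA in 8.82% against 9.46%, so these 3 shares were close to the background. The median number of CpG dinucleotides was 20.0 in the 34, 20.0 in protein-coding promoters, and 8.50 in the 4 members below 1 TPM. These shares carry no test.

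The members split into 42 genes with a mean between 39.8 and 999 TPM and 7 genes below 0.5 TPM, with none between. Each symbol's log2(TPM + 0.01) was tested against 1 TPM by limma's moderated one-sample test, with Benjamini-Hochberg adjustment over the 21990 symbols above 0 in at least 1 library. A call needed an adjusted p under 0.05. The test called 42 members above 1 TPM, 89.4% of the 47 tested, against 58.5% of all tested symbols. It called 5 members below 1 TPM, against 33.9% of all tested symbols, and 2 members, COX4I2 and COX6A2, were listed at 0 in every library and not tested. The largest adjusted p among the 42 was 6.08e-09, for ATP5F1E. A mean of at least 100 TPM was reached by 40 of the 49 members and by 1640 of 35880 symbols (4.57%).

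**Figure D1:**
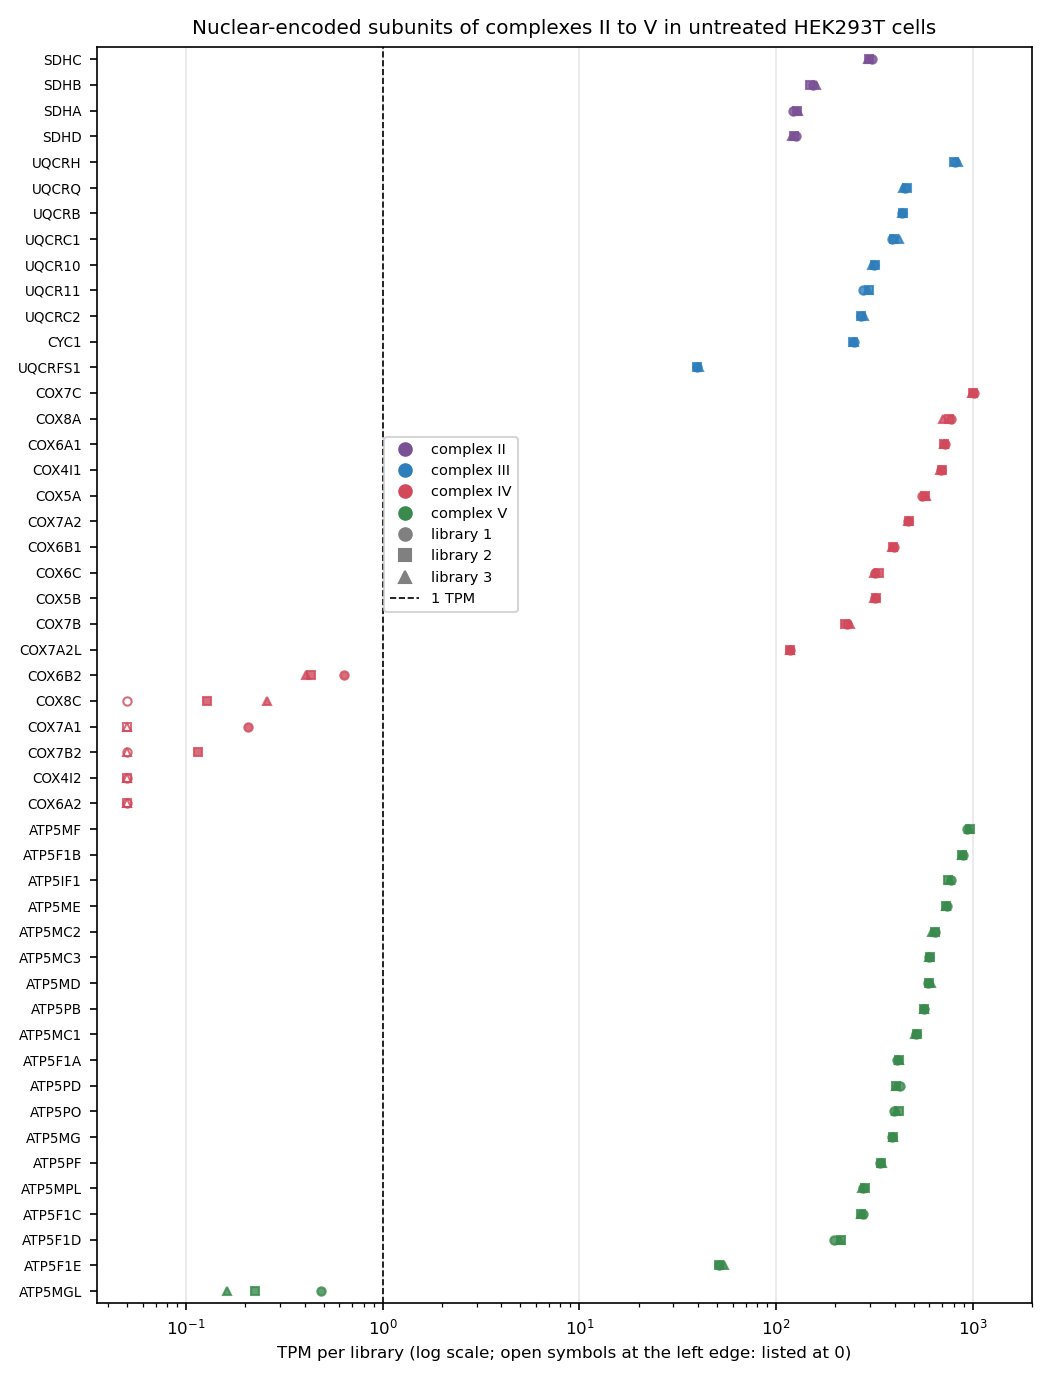
TPM of each of the 49 members in each of the 3 libraries on a log axis, coloured by complex and ordered by mean within it, with the dashed line at 1 TPM. Open symbols at the left edge are values listed at 0. The 42 high members lie at 39.5 TPM or more in every library, and the 6 tissue forms of complex IV and ATP5MGL lie below 1 TPM in every library.

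Summed over its members, complex II held 709, 697 and 701 TPM in replicates 1, 2 and 3, complex III 3246, 3279 and 3312 TPM, complex IV 5600, 5609 and 5503 TPM, and complex V 9009, 9076 and 9029 TPM. The 4 sums did not overlap between libraries. The sums followed the number of members. The median member was 140 TPM in complex II, 313 in III, 318 in IV and 418 in V. On the most abundant transcript of each gene alone, complex II came to 463 TPM in place of 702 and complex III to 2103 TPM in place of 3279. All 49 together held 1.86% ± 0.00622 of the TPM of a library (SD, n = 3). The 38 nuclear NDUF symbols, taken for complex I by name alone, summed to 8298 ± 31.9 TPM. Their median was 154 TPM, close to the 140 TPM of complex II. This name rule also takes in NDUFA4, which is now assigned to complex IV and is not among the complex IV members here. The 6 mitochondrially encoded partners summed to 43553 ± 1071 TPM. Their lowest was MT-CYB of complex III at 3595 ± 64.7 TPM and their highest MT-ATP8 of complex V at 10098 ± 437 TPM. Each partner therefore stood above every nuclear member. MT-ATP8 and MT-ATP6 overlap on a shared mRNA, so their values are not separate RNA levels and the sum counts that RNA more than once. How reads were divided between them was not tested.

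Complex II consists of a catalytic pair and a membrane pair. SDHA, the flavoprotein that oxidises succinate, was at 122, 127 and 129 TPM in replicates 1, 2 and 3. SDHB, the iron-sulfur protein that carries the electrons on, was at 154, 149 and 160 TPM, above SDHA in every library. Of the membrane anchors that hold heme b and the quinone site, SDHC was at 307, 298 and 292 TPM and SDHD at 126, 123 and 120 TPM. SDHC stood above the other 3 in every library, while SDHA and SDHD overlapped.

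Part of the SDHC level lay in transcripts not annotated as coding for the protein. Transcripts annotated for nonsense-mediated decay (NMD), a pathway that degrades RNA with an early stop, held 43.6%, 41.8% and 44.7% of its TPM. Its coding transcripts alone came to 168 ± 6.61 TPM, beside 145 ± 3.79 for SDHB, 121 ± 3.82 for SDHD and 103 ± 2.45 for SDHA (SD, n = 3). On coding transcripts the 4 members therefore lay closer together, with SDHC still highest.

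SDHA shares sequence with 3 pseudogene symbols that were themselves above 1 TPM. SDHAP1 was at 27.4, 30.1 and 29.6 TPM, SDHAP3 at 26.4, 27.3 and 29.1 TPM, and SDHAP2 at 5.83, 5.43 and 6.79 TPM. Of the 31-base words of SDHA's most abundant transcript, 39.7% also occurred in other symbols, 26.2% in SDHAP1. AC132008.2, which is not a pseudogene symbol of SDHA by name, held 10.5% of these words and was at 19.1, 16.1 and 18.3 TPM. How reads were divided between SDHA and these 4 symbols was not tested, so the level of SDHA is uncertain. Adding all pseudogene symbols, which do not include AC132008.2, to their parents moved complex II from 702 to 765 TPM and left the order of the 4 complexes as it was.

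Summed over all transcripts, the catalytic subunits of complex III were among its lower members. CYC1, the cytochrome c1 that hands electrons to cytochrome c, was at 250, 246 and 249 TPM. On coding transcripts alone CYC1 had a mean of 232 TPM, above UQCRC1 (164), UQCR11 (162) and UQCRC2 (133). UQCRFS1, the Rieske iron-sulfur protein that takes the electron from ubiquinol, was at 39.5, 39.7 and 40.3 TPM, the lowest of the 42 high members and apart from its neighbour ATP5F1E in every library. The core proteins on the matrix side were at 390, 397 and 423 TPM for UQCRC1 and at 270, 269 and 281 TPM for UQCRC2. They did not overlap.

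The 5 small subunits of complex III summed to 2314 ± 16.4 TPM, more than the core pair (677 ± 24.1) and the catalytic pair (288 ± 1.97) together. UQCRH, the acidic hinge protein at the cytochrome c1 site, was at 816, 806 and 839 TPM, at rank 4 among all members. UQCRQ followed at 452, 465 and 444 TPM and UQCRB, the subunit near the ubiquinone site, at 438, 441 and 436 TPM. UQCR10 (314, 317 and 308 TPM) and UQCR11 (276, 298 and 292 TPM) were lowest of the 5. Their main transcripts were short, from 409 bases in UQCR11 to 604 bases in UQCRH.

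UQCRFS1 has a near-identical copy in the table, UQCRFS1P1, which is annotated as a processed pseudogene and is shown here because it held 80.7% as much TPM as the gene. UQCRFS1P1 was at 29.9, 33.8 and 32.7 TPM, below the gene in every library. By reads the gap was wider: in replicate 1 the longer gene transcript had 3062 estimated reads and UQCRFS1P1 had 431. Its 820 bases aligned without a gap to bases 422 to 1241 of the UQCRFS1 transcript, which hold nearly the whole coding sequence (424 to 1245), with 14 differences (98.3% identity). The 120 bases with the most differences, which begin at the start codon of UQCRFS1, are printed with the differing bases in capitals. UQCRFS1 is at chr19:29212999-29213118 (minus strand), in the coding part of the first exon, and UQCRFS1P1 at chr22:39875291-39875410 (plus strand), both GRCh38.
UQCRFS1: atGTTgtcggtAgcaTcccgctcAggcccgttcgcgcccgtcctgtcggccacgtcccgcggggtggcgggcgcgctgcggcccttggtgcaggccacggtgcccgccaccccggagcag
UQCRFS1P1: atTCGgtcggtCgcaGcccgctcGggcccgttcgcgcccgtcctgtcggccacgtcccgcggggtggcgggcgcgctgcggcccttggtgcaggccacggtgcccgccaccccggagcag
Counted from the first printed base, and from the gene to the copy, the 6 substitutions are G3T, T4C, T5G, A12C, T16G and A24G. The first of them falls in the start codon. Over the whole copy, 73.9% of its 31-base words occurred in UQCRFS1, but only 17.0% of UQCRFS1's words occurred elsewhere, since its transcript is 3475 bases long and most of it lies after the coding part. The table lists this as the only UQCRFS1 transcript. Gene and copy together came to 69.5, 73.4 and 73.0 TPM, still below every other complex III member. How reads were divided between the copy and the gene was not tested, nor was the part of the transcript's length in the gene's low level.

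Complex IV had the widest range of any complex, from 0 to 999 TPM. Its 4 subunits with no second form in the list were COX7C at 1015, 998 and 985 TPM, COX5A at 551, 571 and 576 TPM, COX6C at 318, 333 and 314 TPM, and COX5B at 317, 323 and 313 TPM. COX7C, a short membrane subunit, was the highest of the 49 members in every library. COX5A and COX5B, the zinc-binding subunit, share a number by name only and lie on the matrix side. COX6C and COX5B overlapped, while COX5A and COX7C stood apart from both.

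The widely expressed forms of the isoform pairs lay both above and below COX5A. COX8A was at 773, 759 and 707 TPM, with the largest spread of the 42 high members (CV 4.64%). COX6A1 was at 725, 716 and 710 TPM and COX4I1, the form of subunit 4 found in most tissues, at 690, 701 and 685 TPM. COX7A2 was at 467, 472 and 469 TPM, COX6B1, on the side where cytochrome c docks, at 397, 395 and 387 TPM, and COX7B at 228, 223 and 238 TPM. COX7A2L, also named for its part in joining complexes III and IV into supercomplexes, was at 117, 118 and 118 TPM. COX7A2 exceeded COX7A2L by 1.99 ± 0.01 on the log2(TPM + 0.01) scale (SD, n = 3), a ratio of means of 3.98. That log2 ratio was 1.27 on coding transcripts and 0.69 on the most abundant transcript of each gene.

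The 6 tissue forms together held 0.725 ± 0.0989 TPM, against 3366 ± 44.2 TPM for the 7 widely expressed forms. COX4I2, the form of subunit 4 best known from lung, and COX6A2, the heart and muscle form of subunit 6A, were listed at 0 in all 3 libraries. In replicate 1, for which the table gives estimated counts, 3 reads on the shortest transcript would be 0.873 TPM for COX4I2 and 0.806 TPM for COX6A2. Against that floor, COX4I1 was at least 790-fold higher than COX4I2 and COX6A1 at least 900-fold higher than COX6A2, with counting error alone considered. Neither gene was detectable at this depth.

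COX6B2, the testis form of subunit 6B, was at 0.632, 0.430 and 0.405 TPM, with 17.3 estimated reads in replicate 1. It was called below 1 TPM (log2 difference of -1.05 ± 0.23 SE, limma adjusted p = 0.0114), and COX6B1 was 804-fold higher by the ratio of means. The log2 ratio of this pair was 9.65 ± 0.33, and ran from 8.05 with a pseudocount of 1 to 10.77 on the most abundant transcripts. The main transcript of COX6B2 shared 31.6% of its words with other symbols, 2293 in all. The division of reads between COX6B2 and these symbols was not tested, so its level, call and ratios are uncertain. COX8C, the testis form of subunit 8, was listed at 0 in replicate 1 and was at 0.127 and 0.258 TPM in replicates 2 and 3 (adjusted p = 0.0246). COX7A1, the heart and muscle form of subunit 7A, had 1.00 estimated read and 0.207 TPM in replicate 1 and was listed at 0 in the others (adjusted p = 0.0113). COX7B2, the testis form of subunit 7B, was at 0.115 TPM in replicate 2 only (adjusted p = 0.00605). COX6B2 stood above the other 3 in every library, and those 3 overlapped, so no order was resolved among them. The calls below 1 TPM rest on few reads. In replicate 1, 3 reads on the shortest transcript would be 2.29 TPM for COX7A1 and 3.92 TPM for COX6B2, both above the 1 TPM level, and 0.594 TPM for COX7B2 and 0.393 TPM for COX8C. Without replicate 2 limma called none of the low members below 1 TPM, with adjusted p from 0.0530 for COX6B2 to 0.0874 for COX8C, and COX7B2 was then at 0 throughout.

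In each of the 6 pairs of a widely expressed and a tissue form (of subunits 4, 6A, 6B, 7A, 7B and 8), the widely expressed form was higher in all 3 libraries. The pairs are given as a description, with no test. Marker genes of the tissues for which these forms are named were mostly listed at 0 or called below 1 TPM, but some were called above it. Of 10 heart and muscle markers, 3 (MYH7, MB and MYL2) were listed at 0, 4 were called below 1 TPM, ACTA1 had no call (adjusted p = 0.849), and TNNI3 (26.3 ± 1.03 TPM) and ACTN2 (7.51 ± 0.622 TPM) were called above. Of 10 testis markers, 4 (DAZL, TNP1, PRM1 and PRM2) were listed at 0, 4 (DDX4, SYCP3, ACR and PGK2) were called below 1 TPM, SYCP1 (0.890 ± 0.259 TPM) had no call (adjusted p = 0.402), and LDHC (7.16 ± 1.17 TPM) was called above. Of 5 lung markers, SFTPA1, SFTPC and SCGB1A1 were listed at 0, SFTPB was called below 1 TPM, and NAPSA was at 1.55 ± 0.627 TPM with no call (adjusted p = 0.0804). Of all tested symbols, limma called 58.5% above and 33.9% below. The summed level of the lists ranged over the libraries from 34.3 to 36.8 TPM for heart and muscle, from 7.35 to 9.62 for testis and from 1.48 to 2.62 for lung.

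In complex V, the head of the F1 part was led by its catalytic subunit. ATP5F1B, the beta subunit that makes ATP, was at 892, 885 and 880 TPM, and ATP5F1A, the alpha subunit that alternates with it in equal number, at 414, 422 and 419 TPM. The central stalk was lower, with ATP5F1C (gamma) at 277, 269 and 270 TPM, ATP5F1D (delta) at 198, 213 and 211 TPM and ATP5F1E (epsilon) at 51.5, 51.3 and 54.1 TPM. The 5 genes did not overlap. As with UQCRFS1, the low value of ATP5F1E came with a long main transcript, of 3665 bases, and the part of that length in the level was not tested.

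The peripheral stalk, which keeps the head from turning, was more even. ATP5PB (b) was at 563, 566 and 568 TPM, ATP5PD (d) at 424, 408 and 407 TPM, ATP5PO (the oligomycin sensitivity protein) at 397, 421 and 405 TPM, and ATP5PF (F6) at 336, 342 and 345 TPM. ATP5PD and ATP5PO overlapped and the other neighbours did not. ATP5PO shared 69.6% of its 31-base words with another symbol, AP000311.1, which held 0.830 ± 0.278 TPM.

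Among the small membrane subunits, ATP5MF (f) was at 932, 968 and 960 TPM, ATP5ME (e) at 739, 734 and 734 TPM, and ATP5MD (also called DAPIT) at 590, 601 and 615 TPM. ATP5MG (g) was at 386, 393 and 395 TPM and ATP5MPL (a small proteolipid) at 275, 283 and 274 TPM. ATP5MF had rank 2 and ATP5ME rank 7 among the 49 members. ATP5MGL, a gene that resembles ATP5MG, was at 0.484, 0.225 and 0.162 TPM, with 6.73 estimated reads in replicate 1, and was called below 1 TPM (log2 difference of -1.90 ± 0.39 SE, limma adjusted p = 0.00931). The transcript of ATP5MGL shared 20.6% of its words with other symbols, 403 in all, and 10.7% with ATP5MG. The division of reads between ATP5MGL and these symbols was not tested, so its level and call are uncertain. ATP5IF1, the inhibitor that stops the enzyme from hydrolysing ATP, was at 774, 749 and 768 TPM, at rank 5 among the members. The joined symbol ATP5MF-PTCD1 held 14.7 ± 0.520 TPM, 1.54% of ATP5MF.

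The c ring is encoded by 3 genes whose precursors differ in their import sequences and share the mature protein. The last 77 residues translated from their coding transcripts were identical, whereas the 231 coding bases behind them differed at 27 positions between ATP5MC1 and ATP5MC2 and at 46 between ATP5MC3 and either. No 31-base word was shared over this stretch in any of the 3 comparisons. The last 120 coding bases are printed with the 30 positions at which the genes differ in capitals. They lie in GRCh38 at chr17:48895327-48895766 (plus strand) for ATP5MC1, chr12:53665317-53669155 (minus strand) for ATP5MC2 and chr2:175178291-175179064 (minus strand) for ATP5MC3, and each range spans an intron.
ATP5MC1: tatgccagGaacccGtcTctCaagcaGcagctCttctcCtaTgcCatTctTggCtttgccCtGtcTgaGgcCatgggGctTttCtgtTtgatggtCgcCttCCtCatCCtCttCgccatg
ATP5MC2: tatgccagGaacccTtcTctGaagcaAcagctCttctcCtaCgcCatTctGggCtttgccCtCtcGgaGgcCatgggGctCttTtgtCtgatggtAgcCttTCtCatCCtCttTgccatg
ATP5MC3: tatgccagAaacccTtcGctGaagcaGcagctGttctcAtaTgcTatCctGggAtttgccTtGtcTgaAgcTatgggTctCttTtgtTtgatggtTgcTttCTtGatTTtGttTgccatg
All 3 genes were expressed at like levels. ATP5MC2 was highest at 640, 645 and 617 TPM, ATP5MC3 was at 602, 607 and 600 TPM, and ATP5MC1 at 515, 519 and 507 TPM. The 3 did not overlap, though the ratio of the highest to the lowest was only 1.23, and together they held 1751 ± 24.3 TPM for 1 protein. The order of ATP5MC2 and ATP5MC3 depended on the length used for scaling: the log2 ratio of ATP5MC3 to ATP5MC2 was -0.07 ± 0.03 as deposited and 0.04 in replicate 1 with the full transcript length. The log2 ratio of ATP5MC2 to ATP5MC1 was 0.30 ± 0.02 as deposited and 1.05 on the most abundant transcript of each gene.

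In the order of the 49 members by mean TPM, 26 of the 48 neighbours were apart in all libraries and 22 overlapped. The top of the order was resolved: COX7C, ATP5MF, ATP5F1B and UQCRH each stood above the next gene in all libraries. ATP5IF1, COX8A and ATP5ME overlapped in turn. From ATP5F1A at 418 TPM down to ATP5MG at 391 TPM, 6 neighbouring genes of complexes III, IV and V formed an unbroken run of overlaps. Order depended in part on how length was treated. TPM divides reads by an effective length, which kallisto shortens by about the mean fragment length, so short transcripts are scaled up most. The main transcript of ATP5MF, of 305 bases, had an effective length of 119.

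Estimated counts for replicate 1 were rescaled with the full transcript length to see how far this mattered. ATP5MF was then at 572 TPM in place of 932 and at rank 9 in place of 2. ATP5ME was at 437 TPM in place of 739 and at rank 14 in place of 7, and ATP5MD at 365 TPM in place of 590. ATP5F1B was at 1020 TPM in place of 892 and ranked above COX7C (789 TPM). UQCRFS1 (48.5 TPM) and ATP5F1E (62.6 TPM) had the lowest 2 values among the 42 high members on either scale. Both scales divide by the length of the same annotated transcripts, so this could not show the part of that length in the 2 values. By estimated reads in replicate 1, COX7A2L was lowest at 2504, with 3062 for UQCRFS1 and 3713 for ATP5F1E.

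**Figure D2:**
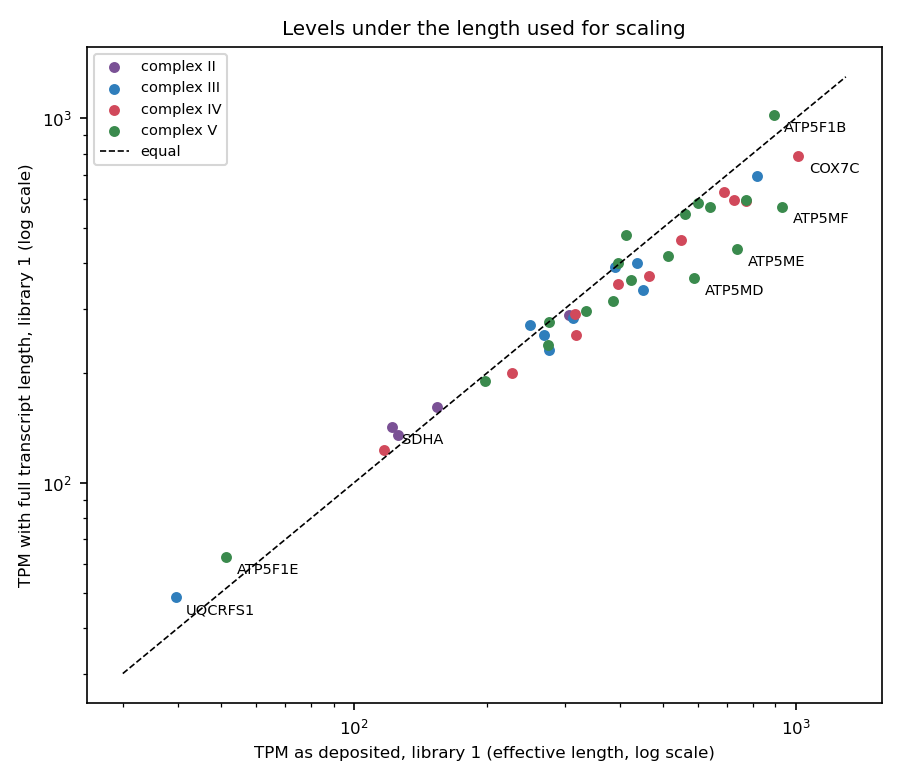
TPM of the 42 high members in library 1 as deposited, with effective length (x axis, log scale), against TPM recomputed from the estimated counts with the full transcript length (y axis, log scale). ATP5ME, ATP5MD and ATP5MF lie farthest under the dashed line of equality, with ratios of 0.591, 0.618 and 0.614, and UQCRFS1 lies farthest above it, with a ratio of 1.23.

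The spread between libraries was small. The median coefficient of variation (CV) over the 42 high members was 1.81%, against 4.54% over the 13475 symbols of at least 1 TPM and 1.85% over the 1640 symbols of at least 100 TPM. The members were therefore about as steady as other genes of their level. ATP5ME (0.407%), ATP5PB (0.419%) and COX7A2 (0.450%) varied least, and COX8A (4.64%), UQCRC1 (4.33%) and UQCR11 (3.87%) most. Counting error alone, from 2504 to 33202 estimated reads per member in replicate 1, would give a median CV of 1.46%. No library led throughout, since replicate 1 was highest for 12, replicate 2 for 16 and replicate 3 for 14 of the 42.

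**Figure D3:**
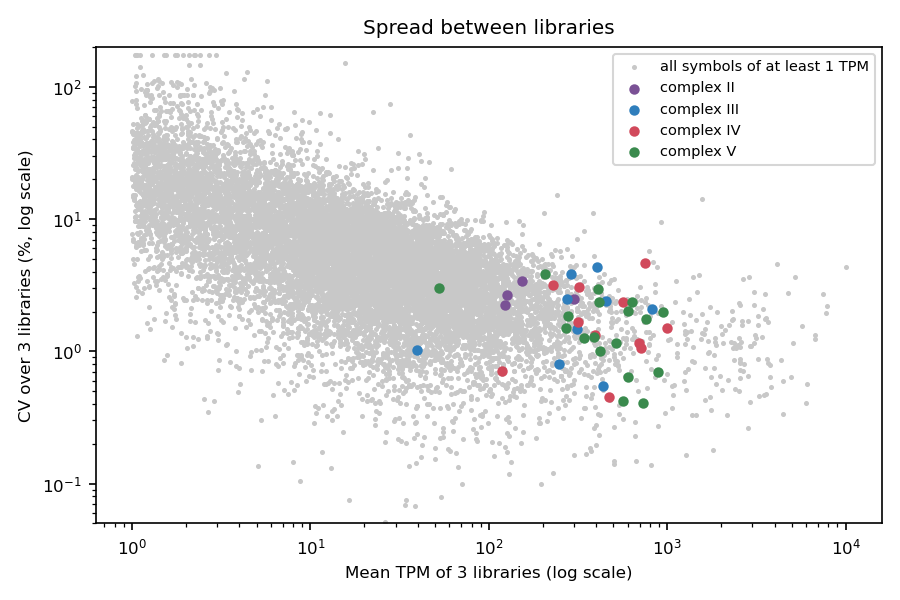
CV over the 3 libraries (%, log scale) against mean TPM (log scale) for all 13475 symbols of at least 1 TPM (grey) and the 42 high members, coloured by complex. The members lie between 0.407% and 4.64%, inside the cloud of symbols of like level.

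TPM of a gene was the sum over its listed transcripts, whose classes were taken from GENCODE release 29. Of the members' TPM, 85.1% ± 0.128 lay in transcripts annotated as coding, against 80.6% ± 0.148 of all TPM in the table. NMD transcripts held 4.96% (3.60% over all), processed transcripts, which have no annotated reading frame, 7.14% (4.92%), and retained-intron transcripts 2.77% (6.57%). Members and all symbols were not treated alike. Member identifiers with values identical to a matched transcript took its class, which was not done over all symbols. There 3.07% of TPM stayed unmatched, while 97.2% of member TPM in replicate 1 matched before this step. The part of this step in the differences was not tested. In 29 of the 42 high members at least 90% of TPM was in coding transcripts, and a few genes held most of the remainder.

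In 5 of the 42 the most abundant transcript was not annotated as coding. COX6C, a complex IV subunit, had 74.3%, 73.3% and 76.6% of its TPM in NMD transcripts, most of it in COX6C-207 (225 ± 12.0 TPM), and only 80.5 ± 7.85 TPM in coding ones. ATP5PB had 92.4%, 94.2% and 96.5% in processed transcripts, led by ATP5PB-201 (291 ± 13.0 TPM), and 31.6 ± 11.4 TPM in coding ones. ATP5MG had 64.1% ± 0.903 and UQCR11 43.8% ± 2.46 in processed transcripts, and COX7A2 had 39.3% ± 2.40 in 1 NMD transcript, COX7A2-204. In these genes the shares stayed within a few percentage points from library to library. Whether reads were given to the right transcript of a gene was not tested, and annotation releases differ in how they class these transcripts.

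Complex III held several genes of this kind. UQCRC1 had 40.8% ± 3.06 of its TPM in its 1 coding transcript, 39.7% ± 2.97 in retained-intron transcripts and 19.6% ± 2.16 in NMD transcripts. UQCRC2 had 48.6% ± 0.898 in coding, 30.8% ± 1.15 in retained-intron and 20.7% ± 1.32 in NMD transcripts. UQCRB had 33.4% ± 1.04 in NMD transcripts, mainly UQCRB-203. On coding transcripts the 2 core proteins were at 164 ± 6.47 TPM (UQCRC1) and 133 ± 3.17 TPM (UQCRC2), below the 232 ± 2.93 TPM of CYC1, although all transcripts together placed both above it.

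**Figure D4:**
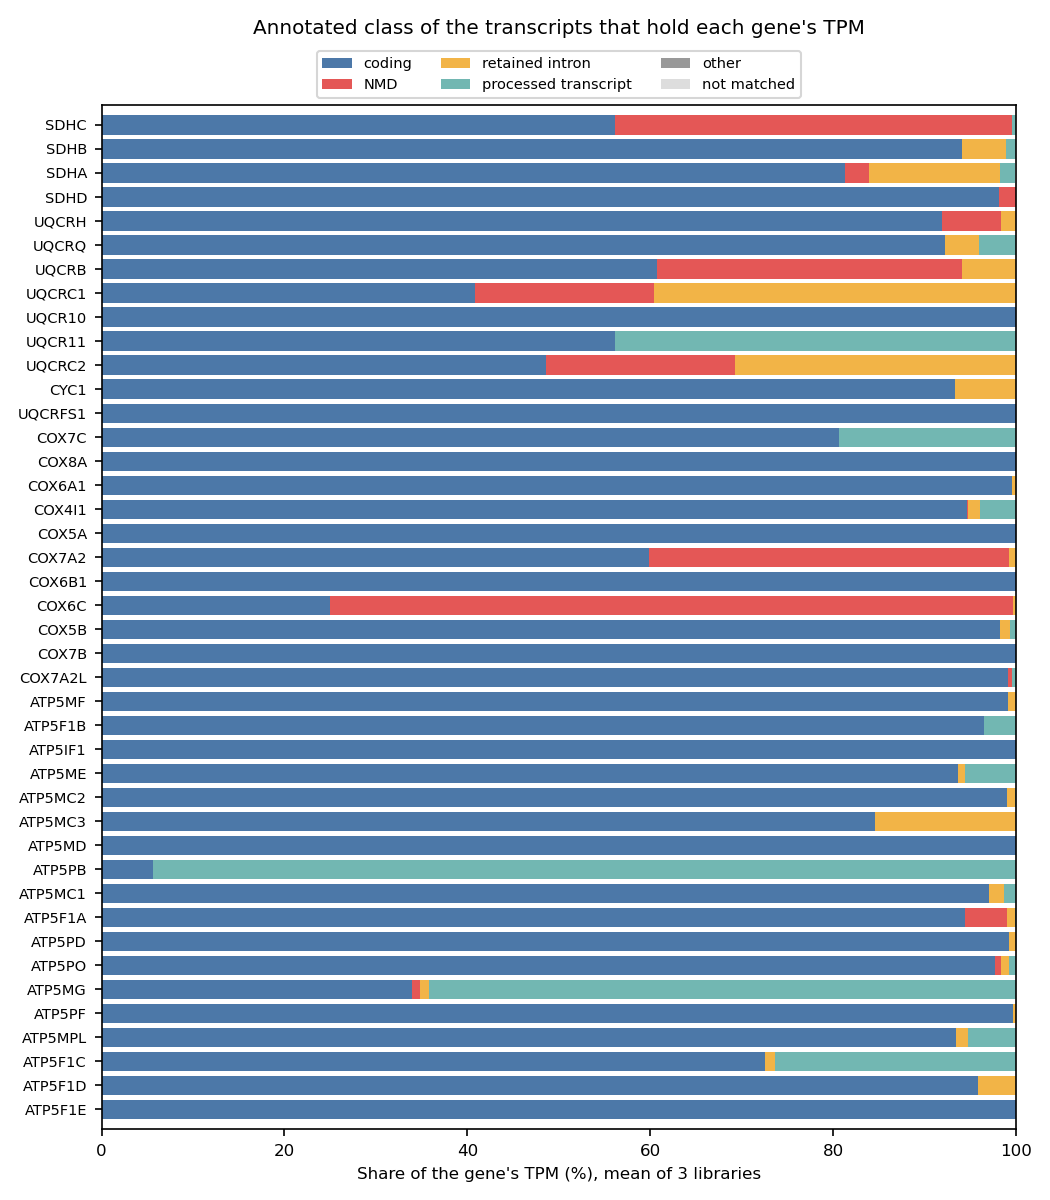
Share of each gene's TPM (%, mean of 3 libraries) held by transcripts of each annotated class, for the 42 high members grouped by complex and ordered by level. ATP5PB and ATP5MG stand out for processed transcripts, COX6C, SDHC and COX7A2 for NMD transcripts, and UQCRC1 and UQCRC2 for retained introns.

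One transcript held at least 80% of TPM in 20 of the 42 high members and less in 22. Among the coding main transcripts under 80%, shares were lowest in UQCRC2-202 (22.8% ± 1.13), SDHC-201 (39.5% ± 0.262), UQCRC1-201 (40.8% ± 3.06), COX5A-203 (41.8% ± 1.83) and ATP5MF-203 (45.7% ± 1.35). Between 56.0% and 59.9% were UQCRB-204, ATP5F1D-202, UQCR10-202, ATP5MC1-201 and COX7B-201. COX7C-201, ATP5PF-201, UQCRQ-202, ATP5F1C-202, SDHA-201, ATP5F1E-201 and ATP5MC3-203 held between 63.9% and 77.1%. The leading transcript changed between libraries in 4 high members, COX5A, COX7A2, UQCRC1 and UQCRC2. In COX5A, COX5A-203 was at 240, 239 and 230 TPM and COX5A-205 at 218, 225 and 243 TPM. In UQCRC1 the gap was wider in replicates 1 and 2 but narrower in replicate 3. There UQCRC1-201 was at 164, 171 and 158 TPM and the next, a retained-intron transcript, at 129, 144 and 165 TPM in replicates 1, 2 and 3.

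Pseudogene symbols were listed for 28 members, 105 in all, of which 78 were at 0 in every library. Only 5 reached a mean of 1 TPM: UQCRFS1P1, SDHAP1, SDHAP3 and SDHAP2, described above, and COX5BP6 at 2.29, 4.40 and 2.32 TPM, 0.945% of COX5B. The COX5BP6 value rests on few reads, 3.00 estimated reads in replicate 1. Sequence shared with other symbols varied widely. In 14 members no 31-base word of the main transcript occurred elsewhere, among them CYC1, UQCRC1, ATP5IF1, ATP5ME and COX6B1, while 11 members shared over 30%. UQCRH shared 43.9% with other symbols, mainly UQCRHL, which held 0.293 ± 0.132 TPM, and COX6A1 shared 49.4%, with 40.4% found in COX6A1P2, at 0.483 ± 0.216 TPM, and 26.8% in AL021546.1, at 4.12 ± 2.31 TPM. How reads were divided was not tested.

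Genes that build or serve the complexes were read from the same fit. All 38 assembly factors were called above 1 TPM, against 58.5% of all tested symbols: 4 of complex II, 6 of complex III, 24 of complex IV and 4 of complex V. Their summed levels were 110, 410, 1954 and 275 TPM in that order, each below the summed subunits. In complex II, SDHAF3 was highest at 47.9 ± 1.34 TPM and SDHAF4, which acts on the flavinated SDHA, lowest at 10.5 ± 1.13 TPM. In complex III, UQCC2 was highest at 177 ± 9.29 TPM and LYRM7, which handles the Rieske protein, lowest at 18.9 ± 0.569 TPM. BCS1L, which inserts the Rieske protein, was at 104 ± 6.15 TPM, above the listed value of UQCRFS1 itself in every library. That value is uncertain, since the parts of transcript length and of the copy UQCRFS1P1 in it were not tested.

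In complex IV, assembly factors ran from COX19, a copper-related factor of the intermembrane space, at 7.98 ± 0.0117 TPM, to HIGD2A at 218 ± 5.40 TPM. In complex V, ATPAF1, a chaperone of the beta subunit, was highest at 104 ± 3.37 TPM and ATPAF2, its alpha counterpart, lowest at 36.0 ± 0.277 TPM. The 10 genes of the mobile carriers were all called above 1 TPM, against the same 58.5%. CYCS, which encodes cytochrome c, was highest at 358 ± 6.84 TPM, within the range of the complex III and IV subunits it connects, and PDSS2, of coenzyme Q synthesis, was lowest at 11.5 ± 1.34 TPM.

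Of 15 regulators, 14 were called above 1 TPM and 1 below, against 58.5% and 33.9% of all tested symbols. TFAM, which packages mitochondrial DNA and starts its transcription, was highest at 118, 120 and 118 TPM. Among the factors whose letters were searched above, NRF1 was at 16.8 ± 0.494 TPM, GABPA at 26.9 ± 0.505 TPM, its partner GABPB1 at 22.2 ± 0.781 TPM and YY1 at 78.6 ± 0.756 TPM. PPARGC1A, the coactivator best known for raising mitochondrial content in muscle and brown fat, was at 0.412, 0.721 and 0.184 TPM and was called below 1 TPM (log2 difference of -1.37 ± 0.44 SE, limma adjusted p = 0.0358), a call that was lost when replicate 1 or replicate 3 was left out (adjusted p = 0.137 and 0.0802). The other 2 members of its family were above 1 TPM, PPARGC1B at 11.1 ± 0.345 TPM and PPRC1 at 59.6 ± 0.563 TPM.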

How the data were processed

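Oligo-dT captured RNA of untreated HEK293T cells went into strand-specific libraries, per the labels' protocols, and 3 libraries of 1 group were used. The submitters' processing notes name kallisto and hg38. Version, options, strand setting and transcript release of kallisto: not given in the sources used here. Per the file headers, the deposited table holds TPM for each replicate, the authors' mean TPM, transcript length, effective length and 1 column of estimated counts. That column names no library. Divided by effective length, it matched the TPM of replicate 1 (median relative difference 1.48e-06, against 0.309 and 0.315 for replicates 2 and 3), and it summed to 33184885. With no counts for replicates 2 and 3, the test planned for TPM was used. Depth was estimated from low values: 26.0%, 25.8% and 26.9% of them came within 0.02 of whole read numbers, where chance gives 4%. The best of many depths in a limited range around the sum for replicate 1 was kept, and the 4% does not allow for that choice.

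TPM was summed per symbol (185299 transcripts, 35880 symbols, 13890 of them at 0 in all libraries). limma 3.58.1 in R 4.3.3 compared log2(TPM + 0.01) with 1 TPM, using a mean-variance trend, over 21990 symbols. The test was tried on simulated data with known levels. Of 369 member transcripts, 351 matched GENCODE release 29 (GRCh38), 347 with the same length, and that release may not be the authors'. The printed end of ATP5MC2 comes from a later version of the table's transcript. For ATP5IF1, COX8C and UQCRC2, 34 identifiers, the matched ones included, shared their values with another identifier. Those with identical values were counted as 1 transcript, under the matched one. Log2 differences and log2 ratios use a pseudocount of 0.01. For genes listed at 0 in some libraries their size depends on this choice. The log2 difference of COX7A1 from 1 TPM was -5.18 with 0.01 and -2.92 with 0.1. Folds are ratios of mean TPM, or of TPM to a floor of 3 reads, with no pseudocount. Shared sequence was the percent of 31-base words of a member's main transcript found in transcripts of other symbols. Promoters are RefSeq's, and 11 members had no entry.

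Members and lists were chosen with earlier results of these data known. Every member is named. Of each other list the highest, the lowest and each gene not called above 1 TPM are named, with the 5 highest pseudogene or joined symbols, and main transcripts that hold under 80% or differ between libraries. BCS1L, GABPA, GABPB1, YY1, NRF1, PPARGC1B, PPRC1, AP000311.1, AC132008.2, AL021546.1, UQCRHL, COX6A1P2 and COX5BP6 were named after their values were seen. Alternatives were other pseudocounts, levels of 0.5 and 2 TPM, a filter at a mean of 0.1 TPM, TMM scaling (edgeR 4.0.16), TPM without mitochondrially encoded genes, other ways to sum or scale transcripts, and leaving out each replicate. Intervals and floors cover counting error only. One marker gene is not reported here.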

Additional observations from a re-analysis of the deposited data

How the results depend on the processing

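The count of 42 members above 1 TPM was the same, and for the same genes, under all 10 alternatives, and the 62 other genes stayed at 62 except at a level of 2 TPM (61), where ESRRG came to a log2 difference of -0.02. In 12 other cases a call below 1 TPM was lost, all for COX6B2, ATP5MGL, COX8C, COX7A1, COX7B2 or PPARGC1A and all at a level of 0.5 TPM or without 1 replicate. Members called below 1 TPM numbered 5 of 47 tested, 2 at a level of 0.5 TPM, 3 with the filter on mean TPM and 3, 0 and 4 without replicates 1, 2 and 3.

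Sums moved most with the treatment of transcripts. In the order complex II, III, IV, V and all members, they were 702, 3279, 5571, 9038 and 18590 TPM. They came to 463, 2103, 4334, 7040 and 13939 TPM on the most abundant transcript of each gene, to 752, 3511, 5966, 9679 and 19908 TPM without mitochondrially encoded genes, and to 729, 2912, 4659, 7739 and 16039 TPM with full transcript length in replicate 1. They came to 537, 2482, 4901, 7906 and 15826 TPM on coding transcripts, an alternative chosen after seeing the data. With pseudogene symbols added, complex II came to 765 and all members to 18693 TPM, and the other sums moved by less than the SD. Leaving out 1 replicate gave 699 to 705, 3262 to 3296, 5552 to 5605, 9019 to 9052 and 18555 to 18613 TPM. The order of the 4 complexes was the same in each of these. The first gene of a pair was higher in every library in 10 of 11 pairs, and in 11 with full transcript length in replicate 1, where the log2 ratio of ATP5MC3 to ATP5MC2 was 0.04. Depth limits the 7 low members, which had at most 17.3 estimated reads in replicate 1. No paired analysis was possible because there is 1 group.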
